A study of Mus musculus with 16 samples.

Results

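The genes described here are 9 partners of the MLL-AF9 fusion protein and of the elongation machinery it recruits: Kmt2a, Mllt3, Dot1l, Men1, Psip1, Aff1, Aff4, Ell and Cdk9. They were named by their known roles, at a time when earlier results of these data were known. Matching the Ensembl identifiers of the deposited count table to mouse symbols gave 1 identifier for each of the 9 genes among 53801 in all. The series is RNA sequencing of a mouse acute myeloid leukemia (AML) line carrying MLL-AF9, kept in RPMI medium with serum, interleukin 3 and stem cell factor. Its 4 groups of 4 libraries each are control cells at 20% oxygen, MCT4-KO cells at 20% oxygen, control cells at 2% oxygen and MCT4-KO cells at 2% oxygen. MCT4, the product of Slc16a3, carries lactate and protons out of the cell. It was targeted with CRISPR-Cas9, the control cells received a guide RNA with no target, and Cas9 was induced with 4-hydroxytamoxifen in all groups. The labels do not say whether a population was 1 clone, how the fusion was introduced or from which species its parts came. Reads of the fusion transcript that align to Kmt2a or Mllt3 would be counted there, and their share in these values was not tested.

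Kmt2a encodes MLL, a methyltransferase for lysine 4 of histone H3 that keeps HOX genes active in blood progenitors. In MLL leukemias its amino-terminal part, which needs menin (Men1) and LEDGF (Psip1) to reach chromatin, is joined to a partner such as AF9 (Mllt3). AF9 brings in Dot1l, the methyltransferase for lysine 79 of histone H3, and the super elongation complex, in which the scaffolds Aff1 and Aff4 hold the elongation factor Ell and the kinase Cdk9, which releases paused RNA polymerase.

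A library held between 21192179 and 28871459 estimated counts, and each of the 9 genes passed the filter on low counts. Slc16a3, the targeted gene, was lower in the MCT4-KO libraries at both oxygen levels, at 79.9 against 209.9 CPM (counts scaled to a common library size with TMM factors) on average at 20% oxygen and 365 against 811.7 CPM at 2%. Of 12 markers of myeloid progenitors and leukemia cells, 11 were above 1 CPM on average (Csf1r was not), while the T cell markers Cd3e and Cd4 had 0 counts. The summed myeloid markers were 2838 to 3018 CPM in control cells at 20% oxygen, 3159 to 3307 in MCT4-KO cells at 20%, 6364 to 6673 in control cells at 2% and 6157 to 6433 in MCT4-KO cells at 2%. Replicate 4 of the control cells at 2% oxygen stood apart from the other 3 of its group. Where the call of a named gene changed without it, this is stated. Whether replicates came from separate cultures is not stated in the labels, and the spread that the p-values rest on may therefore be technical. Levels are relative abundances in bulk RNA, in which a smaller share of cells with a transcript and less transcript per cell cannot be told apart.

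Per length of annotated exon, the members covered a wide range of levels. In control cells at 20% oxygen Cdk9 was highest, at 28.3 ± 0.729 CPM per kb of exon (SD, n = 4), above 86.5% of the 13759 tested genes with a length. Psip1 followed at 23.6 ± 0.942 and Aff1 at 23.0 ± 1.76 CPM per kb, and the libraries of these 2 genes overlapped. Men1 was at 14.8 ± 0.872, Kmt2a at 12.8 ± 0.925 and Dot1l at 11.7 ± 0.492 CPM per kb, with overlapping ranges between neighbours in that order. Below them stood Ell at 10.1 ± 0.302, Aff4 at 6.03 ± 0.387 and Mllt3 at 1.44 ± 0.0549 CPM per kb, the last above 28.4% of genes. With the longest transcript as the length in place of all exons, Psip1 passed Cdk9 and Dot1l passed Kmt2a. Mllt3, whose product is the AF9 part of the fusion, was thus the least abundant of the 9 on either length, and its paralog Mllt1 (ENL) was at 17.6 CPM per kb in the same libraries.

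**Figure D1:**
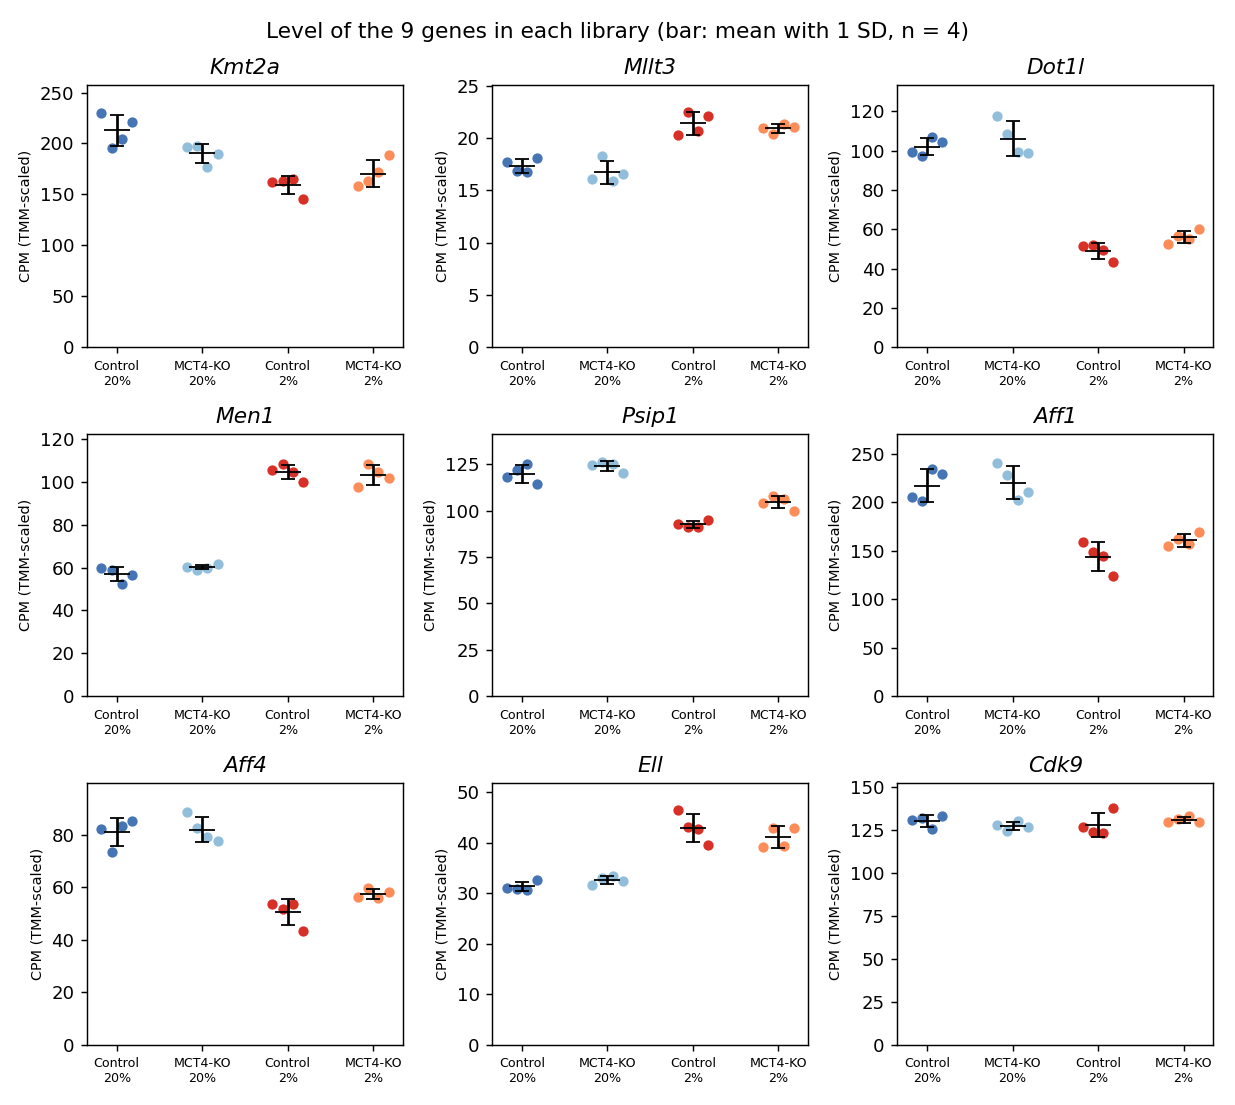
Each panel shows 1 gene, with TMM-scaled CPM on the vertical axis from 0 and the 4 groups along the horizontal axis; points are libraries, and the black bar is the mean with 1 SD (n = 4). Dot1l drops from about 102.1 to 48.9 CPM and Men1 climbs from 56.9 to 104.8 CPM between 20% and 2% oxygen in control cells, while the 4 Cdk9 groups lie on top of each other.

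Culture at 2% oxygen changed 8 of the 9 genes in control cells, in opposite directions. Men1, Ell and Mllt3 rose, Dot1l, Aff4, Aff1, Kmt2a and Psip1 fell, and Cdk9 did not pass the test. Of all 13774 genes tested, 78.3% were called in this comparison (edgeR's quasi-likelihood test, Benjamini-Hochberg adjusted p under 0.05), 38.7% higher and 39.6% lower, so 8 of 9 is near the background. The median absolute log2 fold change of the 9 genes was 0.454, beside 0.462 over all genes.

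Among the genes that place the fusion on chromatin, Men1 rose and the others fell. Men1, the scaffold menin, had 59.9, 58.7, 52.3 and 56.8 CPM in replicates 1 to 4 of the control cells at 20% oxygen and 105.8, 108.3, 104.9 and 100.1 CPM at 2%. All 4 low-oxygen libraries were above all 4 others, with a log2 fold change of 0.88 ± 0.042 (SE, edgeR adjusted p = 7.76e-14). Kmt2a itself had 229.9, 195.7, 204.6 and 220.8 CPM at 20% oxygen and 161.8, 163.0, 165.1 and 145.6 CPM at 2%. Its groups did not overlap, and it fell by 0.42 ± 0.058 on the log2 scale (edgeR adjusted p = 1.19e-06). Psip1, which tethers the complex to chromatin marked on lysine 36 of histone H3, had 118.1, 122.2, 125.2 and 114.2 CPM at 20% and 93.0, 91.2, 91.1 and 94.9 CPM at 2%. It was lower in each of the 4 low-oxygen libraries and fell by 0.37 ± 0.034 (edgeR adjusted p = 3.55e-09). Of the exon bases of Psip1, 9.5% overlap Snapc3 on the opposite strand, and the strand setting of the counting is not given in the labels or notes. The same limit holds for genes named below, Mllt10 (12.7%, Dnajc1), Hoxa7 (20.4%, Hoxaas3) and Wdr61 (33.9%, Dnaja4), all with opposite-strand overlaps. Of Meis1 exon bases, 18.3% overlap Gm37818 on the same strand or Gm16140 on the opposite strand.

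The AF9 gene and its methyltransferase partner moved apart. Mllt3 had 17.7, 16.8, 16.8 and 18.1 CPM in control cells at 20% oxygen and 20.3, 22.5, 20.7 and 22.1 CPM at 2%. The 2 groups were separate by a small margin, and Mllt3 rose by 0.30 ± 0.052 on the log2 scale (edgeR adjusted p = 2.51e-05). When libraries were scaled by their totals alone, the log2 fold change was 0.097 and the call was lost (edgeR adjusted p = 0.1). Dot1l showed the largest change among the 9 genes, from 99.6, 97.6, 107.0 and 104.2 CPM at 20% to 51.3, 51.9, 49.2 and 43.2 CPM at 2%. Every low-oxygen library was well below every library at 20%, and Dot1l fell by 1.06 ± 0.061 (edgeR adjusted p = 1.66e-12).

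In the super elongation complex both scaffolds fell while Ell rose and Cdk9 stayed near its level. Aff1 had 204.9, 200.8, 234.0 and 228.7 CPM in control cells at 20% oxygen and 158.7, 148.1, 144.5 and 123.8 CPM at 2%. Aff4 had 82.0, 73.5, 83.4 and 85.3 CPM at 20% and 53.7, 51.9, 53.8 and 43.4 CPM at 2%. Neither gene's groups overlapped, and replicate 4 at 2% was the lowest library for both. Aff1 fell by 0.59 ± 0.067 (edgeR adjusted p = 7.47e-08) and Aff4 by 0.68 ± 0.061 (edgeR adjusted p = 2.13e-09). Ell, the factor that suppresses transient pausing of the polymerase, had 31.1, 30.9, 30.6 and 32.7 CPM at 20% and 46.4, 43.2, 42.7 and 39.5 CPM at 2%. Its 4 low-oxygen libraries were the higher ones, and it rose by 0.45 ± 0.048 (edgeR adjusted p = 2.74e-08). Cdk9, the kinase of the positive elongation factor P-TEFb, had 130.7, 132.2, 125.7 and 133.4 CPM at 20% and 127.0, 123.8, 123.4 and 138.0 CPM at 2%. The groups overlapped, with a log2 fold change of -0.028 ± 0.035 (edgeR adjusted p = 0.474). Whether Cdk9 was called depended on 1 library and on the scaling: it was called lower without replicate 4 of the control cells at 2% (log2 fold change -0.067, edgeR adjusted p = 0.044) and under scaling by library totals (-0.23, adjusted p = 2.26e-06).

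In MCT4-KO cells the same 3 genes rose and the same 5 fell at 2% oxygen, with Cdk9 again not called; 76.4% of all genes were called there, 37.7% higher and 38.7% lower. Men1 went from 60.5, 59.1, 59.9 and 61.8 CPM at 20% to 97.9, 108.7, 104.8 and 101.8 CPM at 2%, a log2 fold change of 0.78 ± 0.042 (edgeR adjusted p = 6.43e-13). Dot1l went from 117.7, 108.7, 99.2 and 99.0 CPM to 52.4, 56.4, 55.2 and 60.0 CPM and fell by 0.92 ± 0.060 (edgeR adjusted p = 1.42e-11). For these 2 genes no library of one oxygen level reached the range of the other. Aff1 fell by 0.45 ± 0.066, Aff4 by 0.51 ± 0.059 and Psip1 by 0.25 ± 0.034, while Ell rose by 0.33 ± 0.047 and Mllt3 by 0.32 ± 0.052, with edgeR adjusted p-values between 1.26e-07 and 1.02e-05. The groups of these 5 genes did not overlap either. Kmt2a was the exception among the called genes. It had 197.0, 197.4, 177.3 and 189.2 CPM at 20% and 158.0, 163.3, 171.7 and 189.0 CPM at 2%, so replicate 4 at 2% lay inside the range at 20%. Kmt2a fell by 0.16 ± 0.057 (edgeR adjusted p = 0.0176), and this call was lost without any 1 of 3 libraries: replicate 2 at 20% (-0.14) or replicate 1 (-0.13) or 2 (-0.14) at 2%. Groups without overlap were found for 8 of 9 genes in control cells and 7 of 9 in MCT4-KO cells, beside 70.2% and 72.4% of all genes. The log2 fold change of Cdk9 in MCT4-KO cells was 0.041 ± 0.035 (edgeR adjusted p = 0.296), and it reversed to -0.14 (adjusted p = 9.04e-04) under scaling by library totals.

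**Figure D2:**
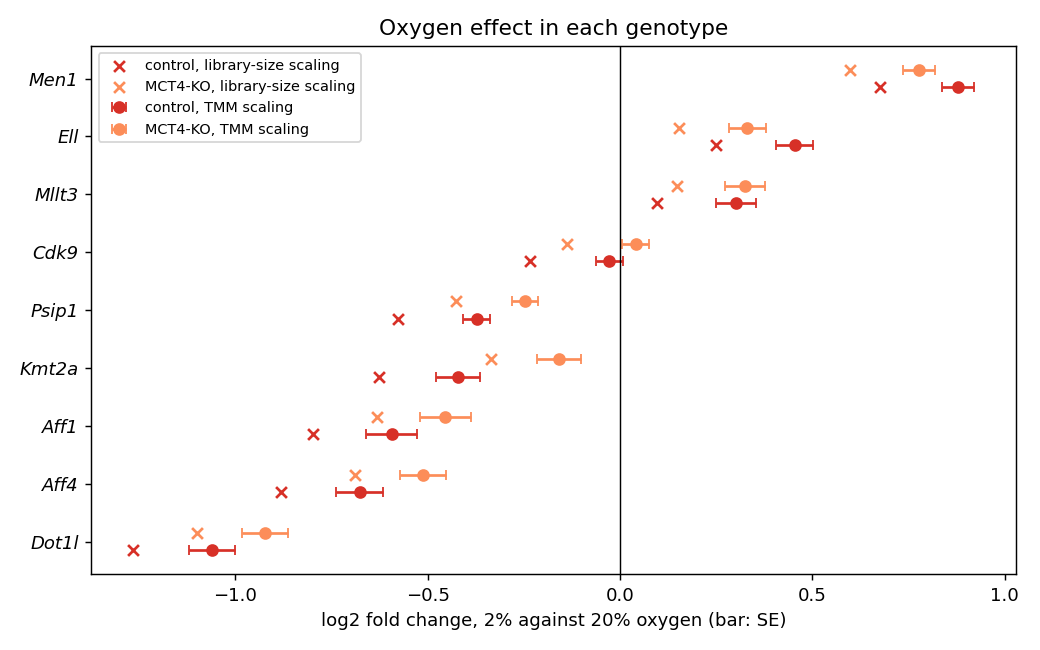
The horizontal axis is the log2 fold change of 2% against 20% oxygen for each of the 9 genes (rows), with circles and SE bars for TMM scaling, crosses for scaling by library totals, and 1 colour per genotype. Crosses lie to the left of the circles by about 0.2, Dot1l stands at the far left and Men1 at the far right in both genotypes, and Cdk9 moves across 0 only in MCT4-KO cells.

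Scaling by library totals moved the median log2 fold change of all genes by -0.20 in control cells and -0.18 in MCT4-KO cells, since TMM factors were 1.06 to 1.08 at 20% oxygen and 0.912 to 0.953 at 2%. Of the genes called in control cells, 49.4% were higher under TMM and 35.2% under library totals; in MCT4-KO cells the shares were 49.3% and 35.4%. Under library totals Men1 (0.67 in control, 0.60 in MCT4-KO cells) and Ell (0.25 and 0.15) were still called higher, and Dot1l, Aff4, Aff1, Kmt2a and Psip1 were still called lower in both genotypes. The opposite directions of Men1 and Dot1l therefore held under either scaling.

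The genes that fell included the longest transcripts of the 9. The longest annotated transcript is 16.5 kb for Kmt2a, 10.1 kb for Aff4, 8.32 kb for Aff1 and 6.81 kb for Dot1l, but 3.25 kb for Psip1, which fell too. Men1 at 3.0 kb and Ell at 3.07 kb rose, as did Mllt3 at 6.07 kb. Over all tested genes the median log2 fold change of 2% against 20% oxygen in control cells was 0.18 for 3570 genes with transcripts under 2 kb and -0.24 for 676 genes of 8 kb or more. Against genes of their own length class, Kmt2a in control cells was 0.18 below the class median, Aff1 0.35 and Aff4 0.44, whereas Dot1l was 0.97 below the median of genes of 6 to 8 kb. Only 6.37% of the 1067 genes in that class had a lower value than Dot1l. In MCT4-KO cells Kmt2a was 0.021 above its class median. The part of transcript length in the falls of Kmt2a, Aff1 and Aff4 was not tested. This look at length was chosen after the values of the members were seen.

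RefSeq promoter sequences of GRCm38.p6 were available for 8 of the 9 genes, without Psip1. The windows shown are the 250 bases before the RefSeq start site, given 5′ to 3′ on the gene's strand, for the gene with the largest fall, the gene with the largest rise and a scaffold with a CACGTG match; they were chosen after the values were seen, among windows free of annotated exons. Capitals mark ACGTG or GCGTG on either strand (written CACGT or CACGC when on the other strand), the core that hypoxia-inducible factors are known to bind. The Dot1l window is chr10:80754953-80755202, the Men1 window chr19:6334729-6334978 and the Aff4 window chr11:53350517-53350766, all on the plus strand.
Dot1l: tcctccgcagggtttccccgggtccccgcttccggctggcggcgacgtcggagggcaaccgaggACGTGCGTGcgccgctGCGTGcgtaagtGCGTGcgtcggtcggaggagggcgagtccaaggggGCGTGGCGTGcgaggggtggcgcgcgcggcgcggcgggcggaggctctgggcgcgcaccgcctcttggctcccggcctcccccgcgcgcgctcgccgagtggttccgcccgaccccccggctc
Men1: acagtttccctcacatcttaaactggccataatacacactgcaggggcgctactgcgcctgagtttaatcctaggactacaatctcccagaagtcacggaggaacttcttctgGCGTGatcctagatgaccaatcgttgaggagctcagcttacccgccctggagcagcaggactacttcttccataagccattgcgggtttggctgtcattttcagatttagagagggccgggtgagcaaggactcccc
Aff4: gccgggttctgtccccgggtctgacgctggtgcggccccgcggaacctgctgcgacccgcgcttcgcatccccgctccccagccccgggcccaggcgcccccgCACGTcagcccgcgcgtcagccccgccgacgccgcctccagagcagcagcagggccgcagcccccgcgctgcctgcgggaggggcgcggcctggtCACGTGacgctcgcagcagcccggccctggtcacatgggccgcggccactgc
The Dot1l window held 6 matches, of which the first and second overlap at a G, that of Men1 1 match, and that of Aff4 3, of which 2 lie on opposite strands of 1 CACGTG. The Ell window also held 6 matches, and those of Kmt2a, Mllt3, Aff1 and Cdk9 held 0. Of the 250 bases, 250 lie in annotated exons for Cdk9, 43 for Mllt3, 36 for Ell and 7 for Kmt2a. The RefSeq start of Aff1 (chr5:103754162) lies within the annotated gene, which begins at 103692374. Of 27025 genes with a window of the same length, 38.6% held at least 1 match, 6.73% at least 3 and 0.411% at least 6, while 6.04% held CACGTG. Dot1l, with 6 matches, fell at 2% oxygen and Ell, also with 6, rose. The windows of Dot1l and Aff4 are 78.4% and 79.2% G or C and that of Men1 52%, and a match is a description of letters, not of binding.

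Ratios of counts within a library do not depend on the scaling between libraries. Mllt3 and Mllt1 encode AF9 and ENL, which occupy the same place in the elongation complex. The ratio of Mllt3 to Mllt1 counts was 0.233 to 0.267 in control cells at 20% oxygen and 0.434 to 0.523 at 2%, and 0.225 to 0.274 and 0.437 to 0.480 in MCT4-KO cells. The low-oxygen libraries were higher in both genotypes, by 0.90 and 0.93 on the log2 scale (exact two-sided permutation p = 0.0286, the smallest that 4 against 4 libraries allow). Adjusted over the 16 ratio comparisons made, that p is 0.0571, so no ratio passed a threshold of 0.05. Mllt1 itself fell from 68.9 to 45.5 CPM on average in control cells (log2 fold change -0.60 ± 0.040, edgeR adjusted p = 1.65e-11).

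The ratio of Ell to its paralog Ell2 was also higher at low oxygen, with 0.396 to 0.435 in control cells at 20% oxygen and 0.754 to 0.812 at 2%. In MCT4-KO cells it was 0.399 to 0.423 and 0.686 to 0.732. The differences were 0.92 and 0.77 on the log2 scale, and at 2% oxygen MCT4-KO libraries were all below control libraries, by 0.15 (each exact permutation p = 0.0286, adjusted 0.0571). Ell2 fell by 0.47 ± 0.041 in control cells at 2% oxygen (edgeR adjusted p = 1.26e-09). For the scaffolds, the ratio of Aff1 to Aff4 was 2.68 ± 0.131 in control cells at 20% oxygen and 2.84 ± 0.110 at 2% (SD, n = 4), with overlapping libraries and an exact permutation p of 0.0857 (adjusted 0.137). Ratios of Men1 to the genes that fell were looked at after the values were seen and carry no test. Men1 to Kmt2a was 0.256 to 0.300 in control cells at 20% and 0.635 to 0.687 at 2%, and Men1 to Dot1l was 0.489 to 0.602 and 2.06 to 2.32.

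**Figure D3:**
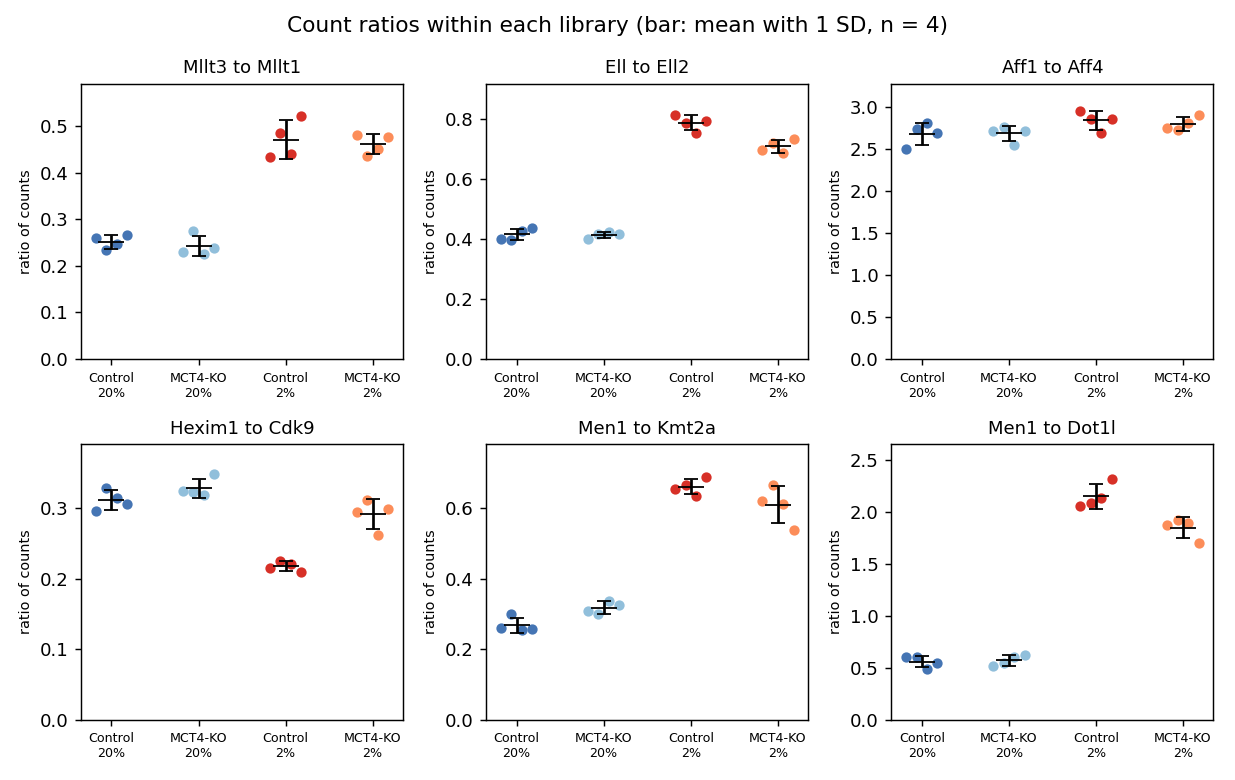
Each panel shows the ratio of the counts of 2 genes in each library (vertical axis from 0, no unit) for the 4 groups; points are libraries and the black bar is the mean with 1 SD (n = 4). Mllt3 to Mllt1 climbs from about 0.252 to 0.471 and Ell to Ell2 from 0.415 to 0.786 in control cells, while Aff1 to Aff4 stays between 2.50 and 2.95 in all control libraries.

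Loss of MCT4 at 20% oxygen left 0 of the 9 genes called by edgeR, DESeq2 or limma-voom, where 9.76% of all genes were called by edgeR, 4.96% higher and 4.80% lower. The libraries of the 2 genotypes overlapped for each of the 9 genes, beside 14.6% of all genes without overlap. At an unadjusted p under 0.05 there was 1, Kmt2a, with the control and MCT4-KO values given above and overlapping ranges. Its log2 fold change was -0.16 ± 0.057 (edgeR adjusted p = 0.0804), it was called without replicate 2 of the control cells (-0.20, adjusted p = 0.0417) and with no count filter (adjusted p = 0.0242). The other 8 genes lay between -0.054 (Mllt3) and 0.083 (Men1) on the log2 scale, with SEs of 0.034 to 0.066. Dot1l, for example, had 99.0 to 117.7 CPM in MCT4-KO cells and 97.6 to 107.0 CPM in control cells.

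At 2% oxygen 3 of the 9 genes were higher in MCT4-KO cells and 0 lower, beside 19.4% of all genes higher and 19.1% lower (38.4% in all); at an unadjusted p under 0.05 there were 4, also higher, and DESeq2 and limma-voom called 3 each. Psip1 had 104.2, 107.7, 106.5 and 100.05 CPM in MCT4-KO cells and 93.0, 91.2, 91.1 and 94.9 CPM in control cells. All 4 MCT4-KO libraries were higher, by 0.18 ± 0.035 (edgeR adjusted p = 4.61e-04), and the call held without any single library. Dot1l had 52.4, 56.4, 55.2 and 60.0 CPM against 51.3, 51.9, 49.2 and 43.2 CPM and was higher by 0.19 ± 0.063 (edgeR adjusted p = 0.0197). Aff4 had 56.2, 59.7, 55.8 and 58.2 CPM against 53.7, 51.9, 53.8 and 43.4 CPM and was higher by 0.18 ± 0.062 (edgeR adjusted p = 0.0269). The groups of both genes were separate by a narrow margin, and both calls were lost without replicate 4 of the control cells (0.14, edgeR adjusted p = 0.0756 for Dot1l; 0.11, adjusted p = 0.1 for Aff4). They were also lost without replicate 4 of the MCT4-KO cells (0.16, adjusted p = 0.0734; 0.17, adjusted p = 0.0585), and Aff4 without its replicate 2 (0.16, adjusted p = 0.0722).

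Aff1, the other scaffold, showed a similar size without a call, at 154.6, 162.5, 156.6 and 169.0 CPM in MCT4-KO cells and 158.7, 148.1, 144.5 and 123.8 CPM in control cells at 2% oxygen. The groups overlapped, and the log2 fold change was 0.16 ± 0.067 (edgeR adjusted p = 0.0681). It was called without replicate 1 of the control cells (0.21) and in 3 of the other settings tried. Without replicate 4 of the control cells it was smaller (0.096, edgeR adjusted p = 0.234). Kmt2a was at 0.10 ± 0.058 (edgeR adjusted p = 0.177). Men1, Ell, Mllt3 and Cdk9 lay between -0.064 and 0.035, none of them called. Groups without overlap were 3 of 9, beside 37.0% of all genes.

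**Figure D4:**
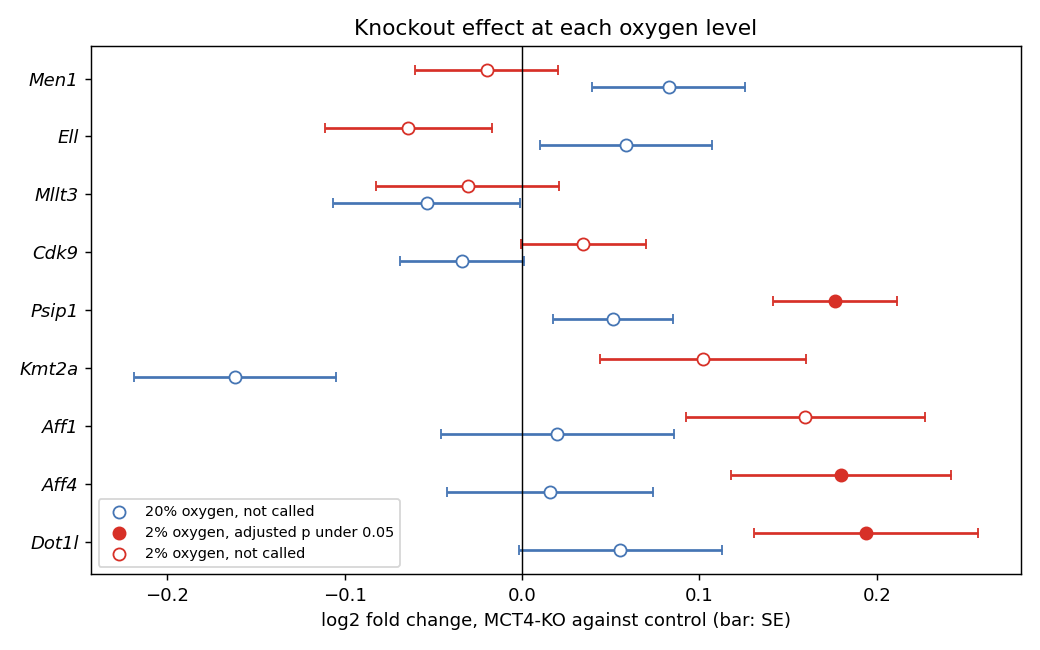
The horizontal axis is the log2 fold change of MCT4-KO against control for each of the 9 genes (rows), with SE bars, in 1 colour per oxygen level; filled circles passed an adjusted p of 0.05 and open circles did not. At 20% oxygen every circle is open, and at 2% Psip1 (0.18), Dot1l (0.19) and Aff4 (0.18) are filled.

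Replicate 4 of the control cells at 2% oxygen, on which the calls of Dot1l and Aff4 rest, was low for long transcripts in general. In it the median gene of 8 kb or more lay 0.094 below its group mean on the log2 scale and the median gene under 2 kb lay 0.079 above it. Dot1l lay 0.18 below its group mean there, Aff1 0.21, Aff4 0.22 and Kmt2a 0.12, while Cdk9 lay 0.11 above. Replicate 2 of the control cells at 20% oxygen, without which Kmt2a was called lower with knockout at 20%, was about as low, by 0.091 for the median gene of 8 kb or more, 0.12 for Kmt2a, 0.11 for Aff1 and 0.14 for Aff4. Across the 16 libraries, deviations from the group means had a Pearson r of 0.93 between Dot1l and Aff1, 0.87 between Aff1 and Aff4 and 0.84 between Dot1l and Aff4. Over all genes the median knockout difference at 2% oxygen was 0.073 for transcripts of 8 kb or more and -0.068 for those under 2 kb. The part of this library and of transcript length in the calls of Dot1l and Aff4 was not tested beyond the values given.

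The knockout effect differed between the oxygen levels for 1 of the 9 genes, Kmt2a, beside 22.9% of all genes (11.6% with a more positive effect at 2% and 11.3% with a more negative one). MCT4-KO libraries averaged 190.2 ± 9.41 CPM of Kmt2a against 212.8 ± 15.4 CPM at 20% oxygen, and 170.5 ± 13.5 against 158.9 ± 8.94 CPM at 2% (SD, n = 4). The difference of the 2 effects was 0.26 ± 0.081 on the log2 scale (edgeR adjusted p = 0.0238). It missed the threshold without replicate 1 of the control cells at 20% (0.22, adjusted p = 0.0552), replicate 3 of the MCT4-KO cells at 20% (0.23, adjusted p = 0.0582) or replicate 4 of the MCT4-KO cells at 2% (0.21, adjusted p = 0.06). For Psip1 the difference was 0.13 ± 0.048 (edgeR adjusted p = 0.0688), not called, and it was called under library-total scaling (0.15) and without any 1 of 3 libraries, replicate 4 of the control cells at either oxygen level or of the MCT4-KO cells at 2%. The difference was not called for Mllt3, Dot1l, Men1, Aff1, Aff4, Ell or Cdk9, so the knockout differences of Dot1l and Aff4 at 2% oxygen were not shown to differ from those at 20%.

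The other genes of these complexes were counted in lists chosen by role, with earlier results of these data known. Among 9 tested partners in the super elongation complex and P-TEFb (Eaf2 was too low to test), 3 rose and 6 fell in control cells at 2% oxygen, and 3 rose and 4 fell in MCT4-KO cells. Of all genes 78.3% and 76.4% were called in these comparisons, split about evenly by direction, and list counts near those shares are not particular to a list. Eaf1, an Ell-associated factor, went from 120.5 to 334.5 CPM on average in control cells, with a log2 fold change of 1.47 ± 0.041 (edgeR adjusted p = 1.06e-17). Aff2, a relative of Aff1 and Aff4, fell by 1.21 ± 0.084, from 92.6 to 40.1 CPM. The P-TEFb cyclins both fell in control cells, Ccnt2 by 0.55 and Ccnt1 by 0.11, while Cdk9 was not called. The Ccnt1 groups overlapped, and its call was lost without control replicate 4 at 20% (-0.091, edgeR adjusted p = 0.0502). Aff3 and Ell3, which are counted among the genes that rose in both genotypes, were scarce. In the control libraries Aff3 was between 0.614 and 2.83 CPM and Ell3 between 0.077 and 0.821 CPM. Of Ell3 exon bases, 65.6% overlap Serinc4 on the same strand. With knockout, Ccnt2 was called lower at 20% oxygen (by 0.22 ± 0.056), and at 2% Ccnt1 was called higher (0.12 ± 0.039) and Eaf1 lower (by 0.25 ± 0.039). At 20% the Ccnt2 call was lost without control replicate 3 or MCT4-KO replicate 1 or 2 (edgeR adjusted p from 0.0569 to 0.0683). At 2% the Ccnt1 call was lost without control replicate 3 (0.11, edgeR adjusted p = 0.0519) or 4 (0.098, adjusted p = 0.0538).

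The 7SK particle holds P-TEFb inactive, and its 4 listed proteins split at low oxygen, with 2 higher and 2 lower in control cells (78.3% of all genes were called). Hexim1, the inhibitor of Cdk9, had 38.7, 43.5, 39.4 and 40.9 CPM in control cells at 20% oxygen, 27.3, 27.9, 27.3 and 28.95 CPM at 2%, and 38.3, 41.1, 34.97 and 38.6 CPM in MCT4-KO cells at 2%. The control cells at 2% were thus the low group. Hexim1 fell by 0.55 ± 0.051 with low oxygen in control cells (edgeR adjusted p = 3.60e-09) and was 0.46 ± 0.051 higher in MCT4-KO than in control cells at 2% (edgeR adjusted p = 1.16e-06). Its paralog Hexim2 went the other way with knockout at 2%, lower by 0.21 ± 0.074 (edgeR adjusted p = 0.0312), a call lost under library totals (adjusted p = 0.0762), with no count filter (0.0765) and in DESeq2 (0.0641). The Hexim2 call was also lost without replicate 2, 3 or 4 of the control cells or replicate 1, 2 or 4 of the MCT4-KO cells at 2% (edgeR adjusted p from 0.0502 to 0.0861). So 1 of the 4 genes was higher and 1 lower, beside 19.4% and 19.1% of all genes. For Hexim1 the knockout effect differed between oxygen levels by 0.41 ± 0.070 (edgeR adjusted p = 2.93e-04). The ratio of Hexim1 to Cdk9 counts was 0.210 to 0.225 in control cells at 2% oxygen and 0.262 to 0.312 in MCT4-KO cells, a difference of 0.42 on the log2 scale (exact permutation p = 0.0286, adjusted 0.0571). Hexim2, at 5.65 CPM on average in control cells at 20%, rose by 0.89 ± 0.078 and Larp7 fell by 0.41 ± 0.038 in control cells. Mepce rose by 0.18, a direction that turned to -0.025 under library-total scaling.

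Pausing factors and the PAF1 complex, which act at the same step as Cdk9, were counted beside 38.7% of all genes higher and 39.6% lower in control cells at 2% oxygen, and 37.7% and 38.7% in MCT4-KO cells. Of the 6 NELF and DSIF genes, 4 rose and 0 fell in control cells, among them Nelfb (0.42 ± 0.032) and Nelfe (0.42 ± 0.039), and 3 rose in MCT4-KO cells. Supt4a, a DSIF subunit, rose in control cells by 0.44 ± 0.055. At 2% oxygen it was 90.0 to 114.6 CPM in control and 66.8 to 71.0 CPM in MCT4-KO cells, lower in the latter by 0.54 ± 0.055 (edgeR adjusted p = 4.08e-07). Of 6 PAF1 complex genes, 3 rose and 1 fell in control cells, 5 rose and 1 fell in MCT4-KO cells, and 4 were higher with MCT4 knockout at 2% oxygen, such as Leo1 (0.22 ± 0.051), where 19.4% of all genes were higher. Cdc73 was the gene that fell, by 0.45 ± 0.042 in control cells. Scaled by library totals, Rtf1, Ctr9 and Wdr61 were no longer called in control cells.

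Among 7 genes tied to Dot1l, 3 rose and 3 fell in control cells at 2% oxygen, and 2 rose and 3 fell in MCT4-KO cells, near the 78.3% and 76.4% of all genes called. Mllt10 (AF10), the cofactor that Dot1l needs for higher methylation states, fell in control cells as Dot1l did, from 142.2 to 97.3 CPM (by 0.55 ± 0.036, edgeR adjusted p = 1.81e-11). At 2% oxygen it was lower in MCT4-KO cells, at 73.9, 74.8, 75.4 and 79.2 CPM against 98.8, 101.6, 98.4 and 90.4 CPM in control cells (by 0.36 ± 0.038, edgeR adjusted p = 5.20e-07). Mllt10 and Dot1l were therefore called in opposite directions in that comparison. The Dot1l call was lost without replicate 4 of the control cells or replicate 4 of the MCT4-KO cells at 2%. Skp1a rose by 0.74 ± 0.041 in control cells at low oxygen.

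Of 18 MLL core subunits and relatives, 1 was higher and 14 were lower in control cells at low oxygen, and 1 higher and 16 lower in MCT4-KO cells. Of all genes 38.7% were higher and 39.6% lower in control cells, and 37.7% and 38.7% in MCT4-KO cells. Several genes of this list, Kmt2c among them, have transcripts of 8 kb or more. Of all genes of that length 26.3% were higher and 55.3% lower in control cells, and 28.0% and 51.0% in MCT4-KO cells. The part of transcript length in the counts of this list was not tested. Wdr5, a core subunit of all MLL-type methyltransferases, fell from 149.9 to 100.35 CPM in control cells (by 0.58 ± 0.037, edgeR adjusted p = 7.50e-12). Rbbp5 fell by 0.49 ± 0.042, Tasp1, the protease that cleaves MLL, by 0.79 ± 0.067, and Kmt2c by 0.76 ± 0.089. Dpy30 was the gene that rose. With MCT4 knockout 0 of 18 were called at 20% oxygen by edgeR, DESeq2 or limma-voom (0 at an unadjusted p under 0.05), and 5 were higher and 0 lower at 2% (19.4% and 19.1% of all genes), among them Wdr5 (0.22 ± 0.037) and the Psip1 paralog Hdgfl2 (0.19 ± 0.039). The median log2 fold change of the list in control cells at low oxygen was -0.28, beside -0.37 for the 9 genes and -0.017 over all genes.

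**Figure D5:**
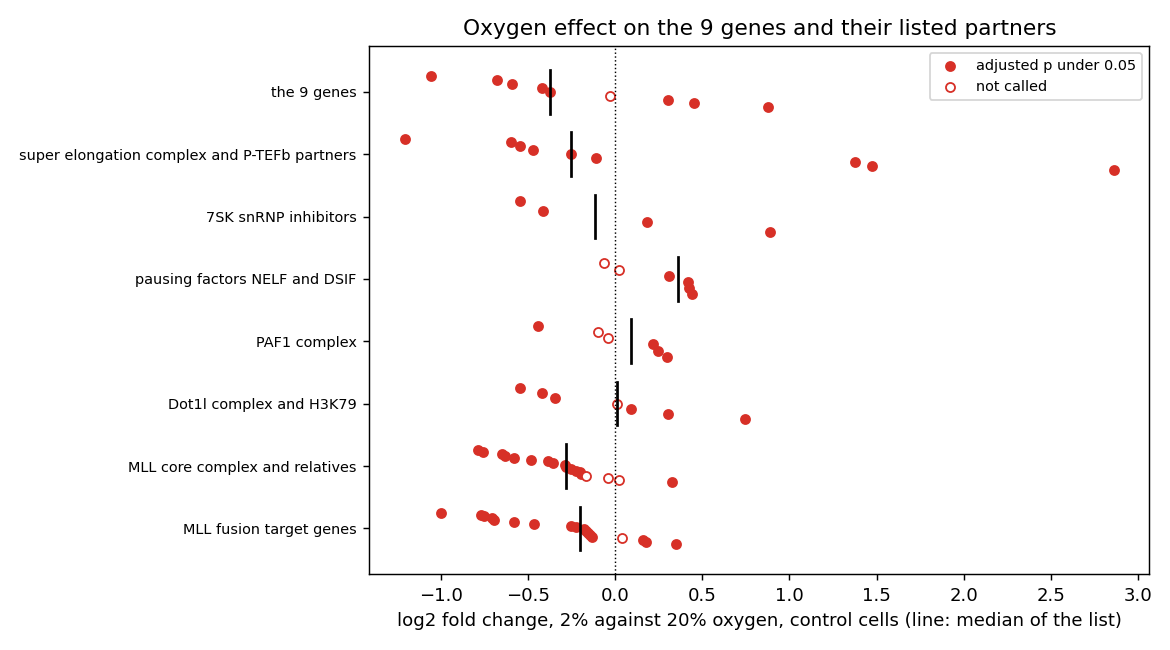
Rows are the 9 genes and the 7 lists of partners and targets, and the horizontal axis is the log2 fold change of 2% against 20% oxygen in control cells; each circle is a gene, filled where the adjusted p was under 0.05, and the vertical line is the median of the row. The 18 MLL core genes lie mostly left of 0 with a median of -0.28, and the NELF and DSIF genes mostly right of it with a median of 0.36.

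Known targets of MLL fusions were called with knockout at both oxygen levels. Of 18 tested targets, 2 were higher and 6 lower in MCT4-KO cells at 20%, and 2 higher and 9 lower at 2%. Of all genes 4.96% were higher and 4.80% lower at 20%, and 19.4% and 19.1% at 2%. Hoxa9, the homeobox gene that sustains these leukemias, fell by 0.23 ± 0.028 with knockout at 20% oxygen (edgeR adjusted p = 2.48e-05), from 448.8 to 383.6 CPM, and by 0.16 ± 0.029 at 2% (edgeR adjusted p = 2.49e-04). Meis1, its cofactor, fell by 0.20 ± 0.050 and by 0.34 ± 0.051. The Meis1 call at 20% was lost without replicate 3 of the MCT4-KO cells (-0.18, edgeR adjusted p = 0.0506). The targets called higher with knockout were Bcl2 (0.21 ± 0.044) and Flt3 (0.20 ± 0.049) at 20%. At 2% they were Myc (0.435 ± 0.046) and Myb (0.12 ± 0.041), and Flt3 was lower there, by 0.31 ± 0.053. These calls of Bcl2, Flt3 and Myb were not retested with single libraries left out. With low oxygen 3 targets rose and 14 fell in control cells, Hoxa9 by 0.77 ± 0.028 and Hoxa7 by 0.999 ± 0.049, and 2 rose and 13 fell in MCT4-KO cells, beside 38.7% and 39.6% of all genes, and 37.7% and 38.7%. At 20% oxygen 8 of these 18 targets and 0 of the 9 cofactor genes were thus called with knockout, beside 9.76% of all genes. For 9 genes a count of 0 is near that share, and the difference between the lists was not tested. Both knockout and oxygen comparisons share groups, so the values are given side by side only.

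Some genes of the whole table followed the members closely over the 16 libraries. Among 9371 candidates (tested, mean log2 CPM of 3 or more), Dot1l was most like Sos1 (Pearson r = 0.997), Cdk12 (0.996) and Ppfia1 (0.996). Mllt3 was most like Dubr (0.964), Nfil3 (0.961) and Fundc1 (0.958), and Kmt2a like Mga (0.945), Trip11 (0.939) and Kidins220 (0.935). The points share 4 groups, and oxygen level separates most of them, so these values describe likeness only.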

How the data were processed

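RNA was measured in 16 libraries of a mouse MLL-AF9 leukemia line, 4 for each combination of genotype and oxygen level. Per the labels' protocols, poly(A) RNA was selected from total RNA. The authors deposited expected counts per Ensembl gene, estimates that need not be whole (10.1% of values were not), and the submitters' processing notes name HISAT2, RSEM and mm10. For their versions, the annotation and the strand setting: not given in the sources used here. No spike-in is described.

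Counts were rounded. Symbols, positions and exon lengths came from GENCODE vM21 (GRCm38), which matched 53706 of 53801 identifiers. Genes passing filterByExpr (13774, with 99.9% of counts) were scaled by TMM, and edgeR 4.0.16 (R 4.3.3) fitted group means over the 16 libraries together, leaving 12 residual degrees of freedom. Quasi-likelihood F-tests were adjusted by Benjamini-Hochberg over all tested genes, and calls were made under 0.05. SEs are the log2 fold change divided by the root of F. Ratios of counts were compared by exact two-sided permutation over 70 splits.

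The members and lists were chosen with earlier results of these data known. The text names all 9 members, the paralogs, cyclins and 7SK proteins, up to 4 called genes of a list per comparison with the smallest adjusted p, Dpy30 as the single gene of a count, Slc16a3, Hoxa9 and Meis1, and the 3 genes most correlated with Kmt2a, Mllt3 and Dot1l. The targets called higher with knockout are named too. Not every gene chosen by these rules is reported. The alternatives were DESeq2 size factors, library totals, no count filter, 1 CPM in 8 libraries, the DESeq2 1.42.0 Wald test, limma-voom (limma 3.58.1), the compared groups only, the replicate number as a block, and leaving out each library. The test was checked on simulated counts, where small changes and changes in genes of low count were recovered only in part; the criterion for this check was limited to genes in the range of the members after a first criterion over all genes was missed.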

Additional observations from a re-analysis of the deposited data

Results flagged for a closer look

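A library lay far from the other 3 of its group (by Dixon's ratio) in 6 of 92 groups of 4 examined over the members, their paralogs, the cyclins, the 7SK proteins and the ratios; chance gives about 1 in 20. Replicate 4 of the control cells at 2% oxygen was low for Kmt2a (145.6 CPM) and for Mllt1 (42.35 CPM). Replicate 2 of the control cells at 20% was high for Mllt1 (72.01 CPM), and replicate 4 of the MCT4-KO cells at 20% was low for Ell2 (77.99 CPM). Replicate 1 of the control cells at 2% was high for Ell3 (0.8211 CPM), and replicate 3 of the MCT4-KO cells at 20% for Aff3 (1.213 CPM).

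The knockout effect at 2% minus that at 20% oxygen passed an edgeR adjusted p of 0.05 for Kmt2a (0.264 on the log2 scale) and for 12 listed partners and targets. Of all genes tested, 22.9% passed. By list it was 1 of 9 super elongation complex and P-TEFb partners, 2 of 4 7SK genes and 1 of 6 pausing factors. It was 2 of 6 PAF1 genes, 2 of 7 genes tied to Dot1l, 1 of 18 MLL core genes and 3 of 18 targets. The count was not tested against that share. It was positive for Ccnt2 (0.289), Hexim1 (0.414), Paf1 (0.162), Leo1 (0.233), Tbl1x (0.173), Wdr5 (0.208) and Myc (0.425). It was negative for Hexim2 (-0.378), Supt4a (-0.468), Mllt10 (-0.28), Lmo2 (-0.384) and Flt3 (-0.505). Tbl1x lost this call with the replicate number as a block (edgeR adjusted p = 0.0618). It also lost it without any 1 of many libraries (0.0509 to 0.0874), among them replicate 4 of the control cells at 2% (0.063). Leo1 lost it without some libraries at 20% (0.0508 to 0.0575). Paf1 lost it with no count filter (0.0992) and without some libraries (0.0526 to 0.0627). Hexim2 lost it without replicate 4 of the MCT4-KO cells at 20% (0.0569). Myc, Lmo2 and Flt3 had adjusted p-values of 1.12e-04, 6.90e-05 and 6.61e-05. Myc fell by 0.58 ± 0.046 with low oxygen in control cells and was 0.43 ± 0.046 higher with knockout at 2% oxygen.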

How the results depend on the processing

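The 8 oxygen calls in each genotype kept their direction under every scaling, filter and test tried. Mllt3 in control cells lost its call under library totals, and Kmt2a in MCT4-KO cells lost its call without any 1 of 3 libraries. Library totals reversed Mllt3 (0.0092) and Men1 (0.020) for knockout at 2% oxygen, Cdk9 for oxygen in MCT4-KO cells (-0.14) and Mepce for oxygen in control cells (-0.025), and gave 2 members with a differing knockout effect. Library totals also moved the share of higher calls from 50.8% to 60.1% (knockout at 20%), 50.4% to 63.1% (knockout at 2%) and 50.6% to 60.1% (difference of the knockout effects). With no count filter 1 member, Kmt2a, was called for knockout at 20%. The cause of these changes was not tested.

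The replicate number does not pair the libraries: deviations of same-numbered libraries correlated between -0.0637 and 0.115, over 0.1 in 1 of 24 pairs, and 3 of 16 libraries correlated best with their own number. With the replicate number as a block, members called were 0 and 3 for knockout at 20% and 2% oxygen, 8 and 8 for oxygen in control and MCT4-KO cells, and 1 for the difference of the knockout effects, as without it.

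Leaving out each library in turn, members called ranged from 0 to 1 for knockout at 20% oxygen, 1 to 4 at 2%, 8 to 9 and 7 to 8 for oxygen in control and MCT4-KO cells, and 0 to 2 for the difference of the knockout effects. All genes called for knockout at 20% ranged from 895 (without replicate 2 of the MCT4-KO cells) to 1321. Uncalled values near 0 changed sign over these settings: Aff1 from -0.023 to 0.061 and Aff4 from -0.028 to 0.042 for knockout at 20%, Men1 from -0.043 to 0.0047 for knockout at 2%, and Mllt3 from -0.0037 to 0.070 for the difference of the effects. Differences of log2 ratios ranged from -0.063 to 0.026 for Mllt3 to Mllt1 with knockout at 2%, and, with knockout at 20%, from -0.030 to 0.027 for Aff1 to Aff4 and -0.024 to 0.020 for Ell to Ell2.

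With the longest transcript as the length, levels per kb in control cells at 20% oxygen were 2.86 for Mllt3, 15 for Dot1l, 19.0 for Men1, 36.9 for Psip1, 26.1 for Aff1, 8.03 for Aff4 and 36.6 for Cdk9. With library totals they were 1.54 for Mllt3, 12.5 for Dot1l, 15.8 for Men1, 25.1 for Psip1, 10.7 for Ell and 30.1 for Cdk9.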
